A study of Xenopus laevis with 15 samples.

Results

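The comparison described here was the change with time after a stimulus in Xenobots, the 6 RNA-seq libraries made 4 h after a stimulus against the 6 made at 0 h, with both stimuli pooled. Xenobots are self-moving bodies that form when the ectodermal animal cap of an African clawed frog (Xenopus laevis) embryo is cut out at stage 9 and left to heal, here for 7 days at 14 °C in buffered saline. The 4 h libraries held 3 of Xenobots given embryo extract and 3 of Xenobots given adenosine triphosphate (ATP). The 0 h libraries, again 3 and 3, were collected directly after the stimulus was added, and 3 Ctrl libraries came from Xenobots that had received none. The extract was a homogenate of 3 stage 8 to 9 embryos in 100 µL, of which 10 µL went into 14 mL of medium. ATP was used at 250 µM. The labels give all animals as wild type and the cells as epidermal, and each library was made from a pool of 50 Xenobots, so values are means over many bodies. Libraries were chosen by their labelled time alone, 12 of the 15 in the series. Unstimulated Xenobots kept for 4 h were not analysed here, so an effect of the stimuli and of 4 h of time by itself cannot be told apart.

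Immediate early genes, among them fos and jun, which encode the AP-1 transcription factors, are switched on in many cells within minutes of a stimulus without new protein synthesis, and their transcripts are short-lived. Notch, BMP and Wnt signals act through target genes that in turn restrain the pathway, such as the hes repressors, the id inhibitors, smad7 and axin2, so the transcript levels of these targets are commonly used to read a pathway. In frog ectoderm these signals, with homeobox, SOX and GATA transcription factors, set apart neural, neural crest and epidermal fates and the ciliated and secretory cells of the skin. Xenopus laevis carries most genes as a pair of copies on its L and S subgenomes, written here as the suffixes .L and .S.

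Each library held 12583000 to 20325100 estimated counts, of which 20.1% to 43.3% fell on ribosomal RNA genes. All 19 epidermal marker genes were measured, and their summed level, as TMM-normalised CPM (counts scaled to a common library size), was 9576 to 12788 CPM at 4 h, 10712 to 14259 CPM at 0 h and 10812 to 12416 CPM in Ctrl. Extract 4 h replicates 1 and 2 were the most alike of all replicate pairs: 11.04% of genes differed between them beyond an unadjusted 5% chi-square level, against 27.6% to 49.6% in the other 14 pairs. That share is above the 5% that counting noise alone gives. Whether the 2 came from separate pools of Xenobots cannot be told from it; they were kept as 2 libraries. Nothing in the labels says whether replicates came from separate batches of embryos, so p-values measure the spread between these libraries only. In bulk tissue, fewer cells of a type and less RNA per cell cannot be told apart.

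At 4 h, 26 genes were lower and 16 genes were higher than at 0 h, out of 24052 tested (edgeR quasi-likelihood test, adjusted p under 0.05, called genes below). That is 0.108% of genes lower and 0.0665% higher, 0.175% in all. By roles assigned to the called genes alone, 13 of the 26 lower genes encode sequence-specific transcription factors, 2 the co-repressor znf703, 2 the inhibitor of DNA binding id3, 2 signalling inhibitors (smad7 and axin2) and 1 the Notch ligand dll1; the share of such roles over all tested genes was not counted. Changes were modest, with log2 fold changes between -0.94 and -0.42 in the lower genes and between 0.38 and 1.94 in the higher ones. An unadjusted p under 0.05 was reached by 1532 genes lower at 4 h (6.37% of those tested) and by 1640 genes higher (6.82%). Without the replicate block, 12 genes were called lower and 2 higher, all of them among the 42. With the closely alike extract 4 h replicates 1 and 2 summed into 1 library and no replicate block, 3 genes were called, and with both left out, chosen after seeing the data, 0 were (edgeR; 1133 genes at an unadjusted p under 0.05). Leaving out 1 library at a time left between 4 calls, without ATP 0 h replicate 2, and 173, without extract 4 h replicate 3, and 4 genes were called in all 15 of those fits: jun.L, ier5l.S, znf703.L and znf703.S.

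In 17 of the 26 lower genes, every 4 h library lay below every 0 h library, as in 70 genes (0.291%) of all tested. In 7 of the 16 higher genes every 4 h library lay above, as in 65 genes (0.27%) of all tested. Pairing each 4 h library with the 0 h library of the same stimulus and replicate number, all 6 pairs moved the same way in 24 of the lower and 15 of the higher genes, as in 2.89% and 3.29% of all genes. Same-numbered extract libraries did not deviate together throughout (correlations of -0.19, 0.31 and 0.06 between the times), so the extract pairs are taken as pairs by number only. The called genes were chosen from these same libraries, so these counts describe them and are no test. By the fitted log2 fold changes, Ctrl was nearer to 0 h than to 4 h in 22 of the 26 lower genes and in 8 of the 16 higher genes. The other 4 lower genes were fos.S, id3.L, irx2.S and enc1.2.L. How often Ctrl was nearer to 0 h over all tested genes was not counted.

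**Figure D1:**
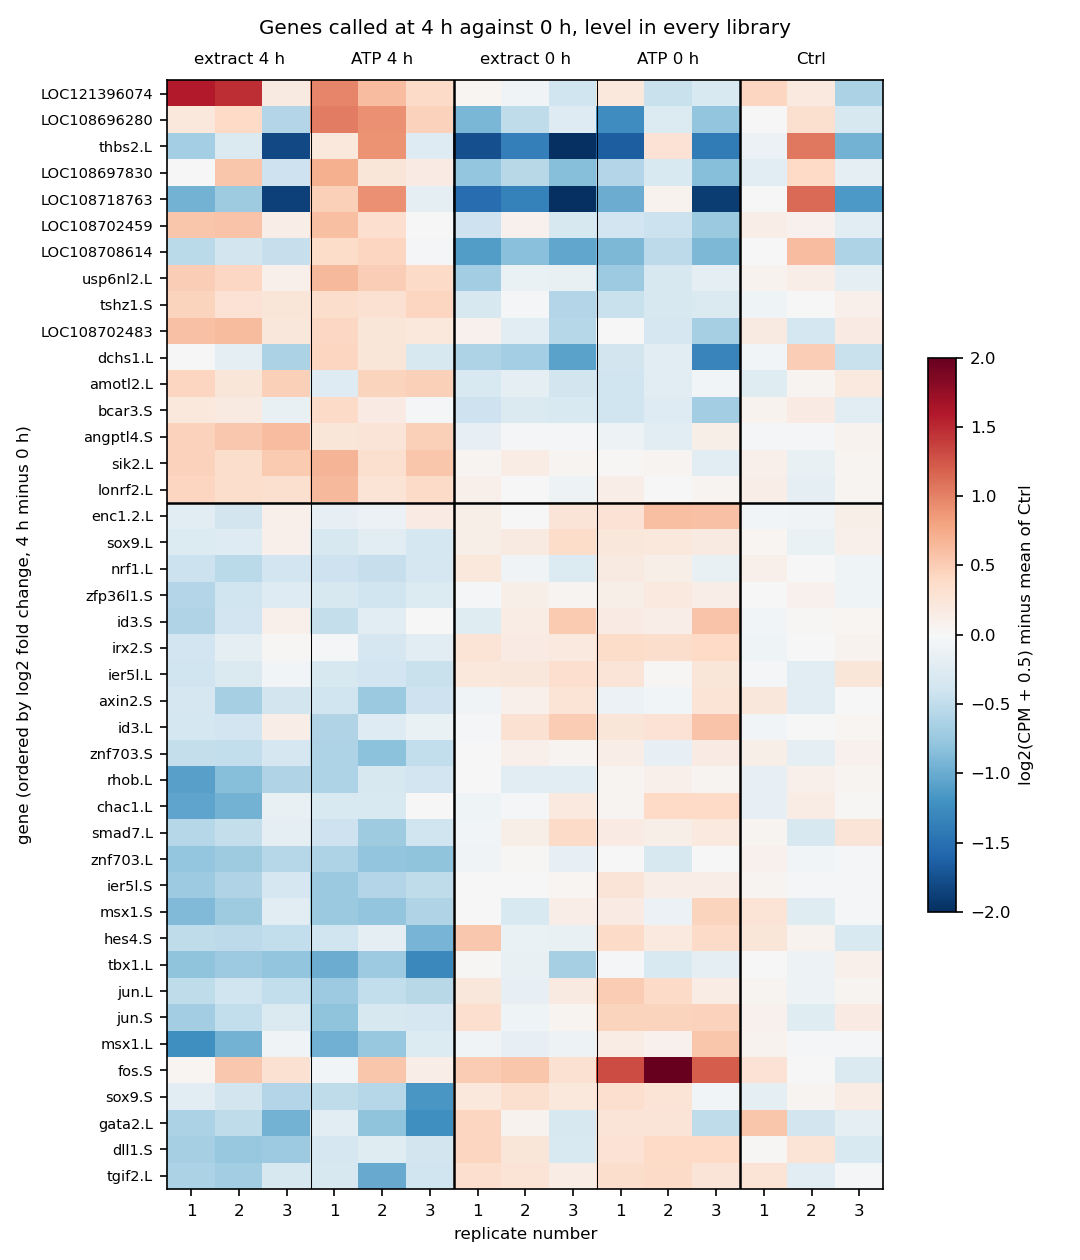
Level of the 42 called genes (rows) in each of the 15 libraries (columns), as log2(CPM + 0.5) minus the mean of the 3 Ctrl libraries; the horizontal line parts the 16 genes higher at 4 h from the 26 lower ones. Below the line the 4 h columns are mostly blue while the 0 h columns lie near the Ctrl level or above it; fos.S stands out as red at ATP 0 h.

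Both copies of jun fell. The level of jun.L was 15.02, 17.6 and 19.0 CPM at 4 h, against 22.4, 29.1 and 36.2 CPM at 0 h, with 23.4, 26.0 and 26.2 CPM in Ctrl (lowest, middle or median, and highest library in each case, here and below). No 4 h library overlapped the 0 h ones, and Ctrl lay among the 0 h libraries. The log2 fold change, 4 h minus 0 h, was -0.76 ± 0.09 (SE), adjusted p = 0.00577 (edgeR). For jun.S the level was 12.99, 17.2 and 18.9 CPM at 4 h, against 21.7, 30.5 and 32.0 CPM at 0 h, with 19.4, 24.5 and 26.0 CPM in Ctrl, again with no overlap between the times, and its log2 fold change was -0.78 ± 0.11 (SE), adjusted p = 0.0132 (edgeR).

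For fos, the partner of jun in AP-1, the estimates of the 2 stimuli lay apart. For fos.S the level, here for replicates 1, 2 and 3 in that order, was 3.19, 5.15 and 3.73 CPM at ATP 4 h, against 9.00, 15.06 and 8.403 CPM at ATP 0 h. After extract it was 3.44, 5.12 and 4.26 CPM at 4 h, against 4.98, 5.13 and 4.25 CPM at 0 h. The ATP libraries did not overlap between times and the extract libraries did. The pooled log2 fold change of -0.79 ± 0.14 (SE; edgeR adjusted p = 0.0494) was thus the mean of -1.41 ± 0.20 after ATP and -0.17 ± 0.21 after extract. The difference between the stimuli, extract minus ATP, was 1.24 ± 0.29 and did not pass over all genes (unadjusted p = 0.000732, edgeR adjusted p = 1.00). Its copy fos.L had a log2 fold change of -0.81 (edgeR adjusted p = 0.0712) and was not called. Of the 18 AP-1 genes tested, 3 were called lower, and the median log2 fold change was -0.17 against -0.001 over all genes. By stimulus the AP-1 median was -0.04 after extract and -0.31 after ATP. With extract 4 h replicates 1 and 2 both left out, the pooled median was 0.04. In the main fit, an unadjusted p under 0.05 was reached by 7 downward and 1 upward, where 6.37% and 6.82% of all genes did. Among the AP-1 genes past the unadjusted level, junb.L had -0.36, junb.S -0.36, jund.S -0.26 and fosl2.L 0.19.

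Among the other immediate early genes, ier5l.S, a copy of an immediate early response gene, fell without overlap of the times. Its level was 16.004, 17.8 and 21.4 CPM at 4 h, against 27.1, 28.8 and 32.5 CPM at 0 h, with 26.4, 26.8 and 28.2 CPM in Ctrl. The log2 fold change was -0.69 ± 0.08 (SE), adjusted p = 0.00577 (edgeR). The copy ier5l.L was also called, at 42.6 ± 4.42 CPM at 4 h, against 61.7 ± 4.31 CPM at 0 h (SD, n = 6 each), and extract 4 h replicate 3 lay above the other 5 libraries of its time. The small GTPase gene rhob.L, whose product is short-lived and acts on endosomes and actin, had 24.8, 34.7 and 42.3 CPM at 4 h, against 45.7, 53.9 and 56.8 CPM at 0 h, with 47.5, 55.2 and 57.1 CPM in Ctrl, with no overlap between the times. Its log2 fold change was -0.61 ± 0.09 (SE), adjusted p = 0.0132 (edgeR), and rhob.S missed the threshold at -0.71 (edgeR adjusted p = 0.0642). In the list of 41 such genes tested, 3 were called lower and 0 higher. The median was -0.09, made of 0.01 after extract and -0.24 after ATP. An unadjusted p under 0.05 was reached by 14 downward and 3 upward, where 6.37% and 6.82% of all genes did. Without the replicate block the counts were 11 and 2, against 1169 and 1176 of all 24052 genes. The growth regulator myc.L stood at -0.50, egr1.L at -0.28. In the other direction were the orphan receptor gene nr4a1.L at 0.33 and the matricellular gene ccn2.L at 0.63, and none of the 4 was called. The mRNA decay factor zfp36l1.S, which binds AU-rich elements and speeds the loss of such transcripts, was called lower, with 36.4, 42.7 and 45.8 CPM at 4 h, against 54.0, 59.9 and 63.2 CPM at 0 h, with 51.7, 55.1 and 58.2 CPM in Ctrl. It was the 1 gene called of 18 tested in the list of mRNA decay and antiproliferative factors. There 6 had an unadjusted p under 0.05 downward and 0 upward, against 6.37% and 6.82% of all genes. Without the replicate block 3 had one downward, where 1169 of all 24052 genes did.

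**Figure D2:**
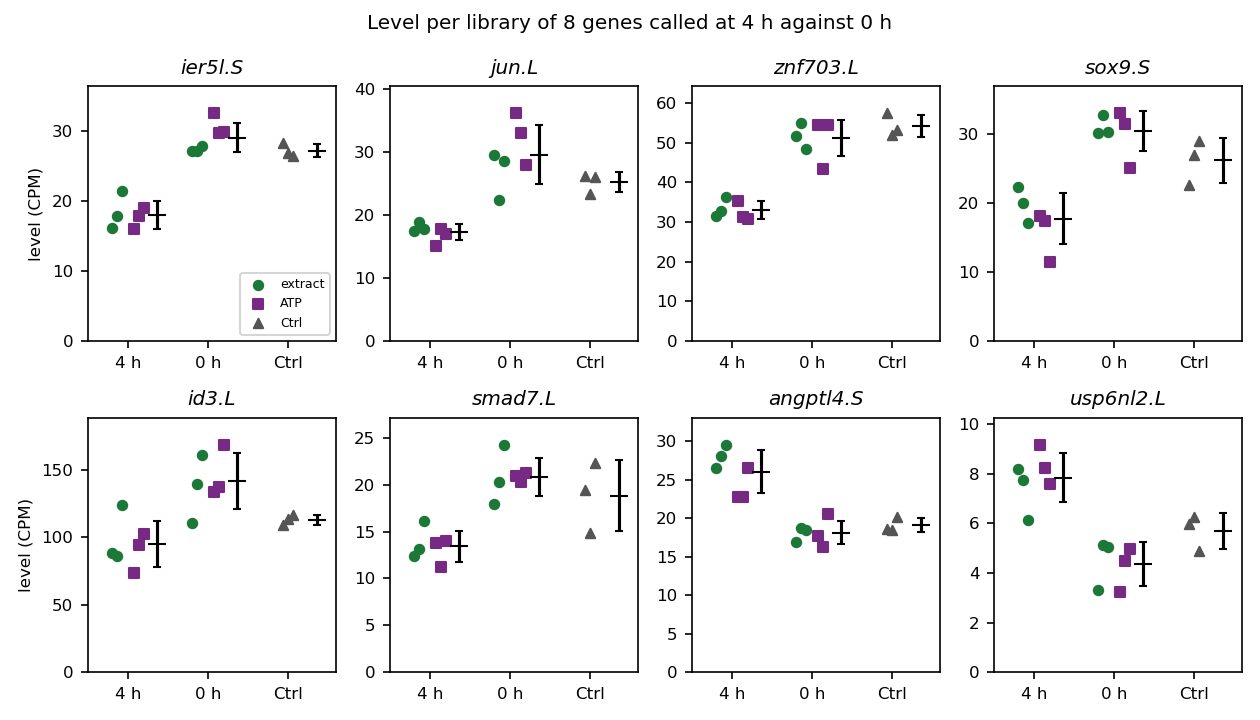
Level in CPM (vertical axis, from 0) of 8 called genes in every library at 4 h, at 0 h and in Ctrl; circles are extract, squares ATP and triangles Ctrl, and the bar beside each time is the mean ± SD of its libraries (n = 6, 6 and 3). For jun.L the 4 h libraries reach 19.0 CPM at most while the 0 h libraries start at 22.4 CPM; for angptl4.S the order is turned, with 22.7 CPM or more at 4 h and 20.6 CPM or less at 0 h.

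The znf703 gene encodes a zinc finger co-repressor of the NET family, which in frog embryos acts in neural crest. Both its copies were called. The level of znf703.L was 30.9, 32.1 and 36.3 CPM at 4 h, against 43.5, 53.1 and 55.0 CPM at 0 h, with 52.0, 53.3 and 57.5 CPM in Ctrl, and its log2 fold change was -0.64 ± 0.08 (SE), adjusted p = 0.00577 (edgeR). That of znf703.S was 25.3, 31.9 and 35.6 CPM at 4 h, against 40.2, 47.7 and 50.6 CPM at 0 h, with 39.2, 47.9 and 48.8 CPM in Ctrl, with a log2 fold change of -0.60 ± 0.07 (SE), adjusted p = 0.00577 (edgeR). In both copies all 4 h libraries lay below all 0 h libraries and below all Ctrl libraries.

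SOX and homeobox factors held 6 further called genes. For sox9.S, a regulator of neural crest and cartilage, the level was 11.4, 17.7 and 22.3 CPM at 4 h, against 25.1, 30.8 and 33.0 CPM at 0 h, with 22.6, 26.9 and 28.9 CPM in Ctrl. The times did not overlap, and the log2 fold change was -0.80 ± 0.11 (SE), adjusted p = 0.0128 (edgeR). Its copy sox9.L was called too, at 30.8 ± 3.89 CPM at 4 h, against 41.6 ± 2.46 CPM at 0 h (SD, n = 6 each). Of 19 SOX genes tested, 2 were called lower. An unadjusted p under 0.05 was reached by 9 downward and 2 upward, where 6.37% and 6.82% of all genes did. The 2 upward were sox5.L at 0.26 and sox5.S at 0.28. Without the replicate block the counts were 7 downward and 1 upward, against 1169 and 1176 of all 24052 genes. For tgif2.L, a TALE homeobox repressor that limits TGF-beta signalling, the level was 2.34, 3.48 and 4.06 CPM at 4 h, against 5.79, 6.51 and 6.95 CPM at 0 h, with 4.34, 5.05 and 6.35 CPM in Ctrl, without overlap of the times. Its log2 fold change of -0.94 ± 0.14 (SE), adjusted p = 0.0132 (edgeR) was the most negative of the called genes. The muscle segment homeobox gene msx1, a BMP target at the neural plate border, was called in both copies. The level of msx1.S was 32.0, 35.7 and 50.5 CPM at 4 h, against 48.0, 62.7 and 81.3 CPM at 0 h, with 50.3, 57.8 and 72.3 CPM in Ctrl, with 1 extract library at 4 h inside the 0 h range. For msx1.L the times overlapped as well, with a log2 fold change of -0.78 ± 0.13 (SE), adjusted p = 0.0439 (edgeR). The Iroquois gene irx2.S was called at -0.49 with 15.7, 17.6 and 21.0 CPM at 4 h, against 23.1, 25.6 and 27.2 CPM at 0 h, with 19.3, 20.7 and 21.6 CPM in Ctrl, so here Ctrl lay below every 0 h library.

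In the list of 50 homeobox patterning genes tested, 4 were called lower. An unadjusted p under 0.05 was reached by 21 downward and 2 upward, where 6.37% and 6.82% of all genes did. Without the replicate block 12 had one downward, where 1169 of all 24052 genes did. The median log2 fold change over the list was -0.15. The distal-less genes, which act in non-neural ectoderm, account for 10 of the 21: dlx2.L stood at -0.56, dlx6.S at -0.52, dlx5.S at -0.36 and dlx3.S at -0.15. The 2 in the other direction were meis2.L at 0.33 and meis1.S at 0.42. No dlx, meis or irx gene besides irx2.S was called.

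The GATA factor gene gata2.L, active in epidermis and its ionocytes, was the 1 called gene of 39 tested in a list of epidermal and some other transcription factors. Its level was 3.18, 4.78 and 7.02 CPM at 4 h, against 5.602, 9.20 and 11.1 CPM at 0 h, with 6.22, 7.13 and 12.17 CPM in Ctrl. The times overlapped, although all 6 pairs matched by replicate number fell. In that list 9 genes had an unadjusted p under 0.05 downward and 6 upward, where 6.37% and 6.82% of all genes did. Downward were gata2.S (-0.49), gata3.S (-0.25), klf5.S (-0.37) and tfap2a.L (-0.25). Upward were the mesenchymal repressors zeb2.L (1.63) and zeb1.S (0.72) and twist1.S (0.75), a gene that also served as a neural crest marker. The counts of this list are thus not of epidermal factors alone. Without the replicate block they were 7 downward and 5 upward. With the trend over gene span removed they were 9 and 4, and with the muscle marker covariate 5 and 0, both described below. Over all 24052 genes the upward counts of these 3 fits were 1176, 1116 and 495. Outside these lists, the T-box gene tbx1.L was called, with 2.45, 3.66 and 3.88 CPM at 4 h, against 4.07, 5.93 and 6.83 CPM at 0 h, with 6.22, 6.74 and 7.29 CPM in Ctrl, its 4 h libraries below all others. The nuclear respiratory factor gene nrf1.L, whose product activates genes of the mitochondrial respiratory chain in mammals, was called at 23.9 ± 1.13 CPM at 4 h, against 32.6 ± 4.35 CPM at 0 h (SD, n = 6 each; log2 fold change -0.44).

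Target genes of Notch, BMP and Wnt signals that feed back on the pathway made up a further group. The repressor gene hes4.S had 6.49, 8.89 and 11.1 CPM at 4 h, against 11.5, 15.7 and 18.8 CPM at 0 h, with 10.2, 13.5 and 15.12 CPM in Ctrl, without overlap of the times (log2 fold change -0.74 ± 0.13 (SE), adjusted p = 0.0447, edgeR). For id3.L, which encodes a BMP-induced inhibitor of basic helix-loop-helix factors, the level was 73.8, 91.2 and 124 CPM at 4 h, against 110.1, 138 and 168 CPM at 0 h, with 109, 113 and 116 CPM in Ctrl. Extract 4 h replicate 3, the highest at 4 h, lay inside the 0 h range, and Ctrl lay between the medians of the times. The copy id3.S was called as well, at 104 ± 20.05 CPM at 4 h, against 145 ± 29.3 CPM at 0 h (SD, n = 6 each), with overlap. In the list of hes, hey and id genes with nrarp, 19 were tested and 3 were called lower. An unadjusted p under 0.05 was reached downward by 11, the highest share of any list plotted, and upward by 0. The shares over all genes were 6.37% and 6.82%. The list's median log2 fold change was -0.28, with -0.24 after extract and -0.34 after ATP. Against Ctrl the median was 0.15 at 0 h and -0.21 at 4 h. Over all 31 genes of the list, the summed level was 337 to 469 CPM at 4 h, 464 to 614 CPM at 0 h and 445 to 452 CPM in Ctrl. Every 0 h library thus lay above every Ctrl library. Between 9 and 12 genes of the list had such a p downward as each library was left out. Over all tested genes between 743 of 24577 and 2918 of 24558 did. Among the 11, hes1.L stood at -0.68, hes5.4.L at -0.91 and id2.L at -0.47.

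The Notch ligand gene dll1.S was called, with 3.98, 4.83 and 5.88 CPM at 4 h, against 5.61, 9.08 and 9.72 CPM at 0 h, with 5.61, 7.199 and 8.68 CPM in Ctrl. Extract 0 h replicate 3 was the low 0 h library, inside the 4 h range. The copy dll1.L was close to no change (-0.07 ± 0.21), at a mean of 1.18 CPM at 4 h and 1.23 CPM at 0 h. Of 18 Notch ligands and receptors tested, dll1.S was the 1 called, and 1 had an unadjusted p under 0.05 downward and 2 upward. The shares over all genes were 6.37% downward and 6.82% upward.

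In the BMP and TGF-beta list of 60 tested genes, the inhibitory SMAD gene smad7.L was the 1 called. Its level was 11.2, 13.5 and 16.1 CPM at 4 h, against 17.9, 20.6 and 24.2 CPM at 0 h, with 14.8, 19.4 and 22.3 CPM in Ctrl, without overlap of the times (log2 fold change -0.63 ± 0.09 (SE), adjusted p = 0.0132, edgeR). Unadjusted p values under 0.05 were reached downward by 6 genes, the copies of smad7, of the BMP pseudoreceptor bambi (-0.57 and -0.49 for .L and .S) and of the ligand bmp4 (-0.32 and -0.21). Upward there were 10, among them the ligand genes tgfb2.S at 1.16, tgfb1.S at 0.74 and inhba.S at 0.77. Of all genes, 6.37% reached such a p downward and 6.82% upward. The upward count of 10 was 7 without the replicate block. It was 6 with the trend over gene span removed and 3 with the muscle marker covariate, both described below. Over all 24052 genes these 3 fits gave 1176, 1116 and 495 upward. The median over the list was 0.06. Of 65 Wnt pathway genes tested, axin2.S, a scaffold of the beta-catenin destruction complex and a Wnt target, was the 1 called. It had 8.95, 11.4 and 12.03 CPM at 4 h, against 14.1, 15.6 and 18.7 CPM at 0 h, with 13.2, 15.23 and 17.9 CPM in Ctrl, and its times did not overlap. The copy axin2.L missed the threshold at -0.44 although its times did not overlap either (edgeR adjusted p = 0.0572). In that list 6 had an unadjusted p under 0.05 downward and 2 upward, where 6.37% and 6.82% of all genes did.

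The 2 remaining lower genes were of other kinds. The gene chac1.L encodes an enzyme that degrades glutathione and is a target of the integrated stress response. Its level was 21.1, 35.9 and 44.7 CPM at 4 h, against 41.9, 48.9 and 58.9 CPM at 0 h, with 39.5, 45.4 and 49.2 CPM in Ctrl. Extract 4 h replicates 1 and 2 were the lowest of all libraries. In the list of 43 stress response genes tested it was the 1 called, and the median log2 fold change was near 0. An unadjusted p under 0.05 was reached by 5 in each direction, where 6.37% of all genes did downward and 6.82% upward. The kelch-repeat gene enc1.2.L was called at 18.7 ± 2.70 CPM at 4 h, against 25.1 ± 4.27 CPM at 0 h (SD, n = 6 each).

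Of the 16 higher genes, 9 carry a symbol, and they are a secreted inhibitor, a matrix protein, a kinase and others of mixed roles. The lipoprotein lipase inhibitor gene angptl4.S, a fasting and PPAR target in mammals, had 22.7, 26.6 and 29.5 CPM at 4 h, against 16.2, 18.13 and 20.6 CPM at 0 h, with 18.5, 18.6 and 20.1 CPM in Ctrl. The 4 h libraries lay above all others, and the log2 fold change was 0.52 ± 0.07 (SE), adjusted p = 0.00848 (edgeR). It was called in 13 of the 15 fits with 1 library left out, and was the 1 gene of the 16 called in at least 10 of them. The copy angptl4.L separated the times as well but missed the threshold (0.38, edgeR adjusted p = 0.0681). In the list of 53 fasting and PPAR-linked lipid genes tested, 7 had an unadjusted p under 0.05 upward and 2 downward, where 6.82% and 6.37% of all genes did. Among the 7 were both copies of ppargc1a and of ppargc1b (0.24 to 0.35).

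The gene usp6nl2.L, related to the Rab GTPase-activating protein gene USP6NL, had 6.15, 7.97 and 9.16 CPM at 4 h, against 3.23, 4.72 and 5.13 CPM at 0 h, with 4.89, 5.96 and 6.26 CPM in Ctrl, without overlap of the times (log2 fold change 0.86 ± 0.14 (SE), adjusted p = 0.0394, edgeR). Of 39 genes of the TBC domain family tested it was the 1 called. In that family 4 had an unadjusted p under 0.05 upward and 0 downward, where 6.82% and 6.37% of all genes did. With the trend over gene span removed, described below, 2 had one upward and 3 downward, against 1116 and 1976 of all genes. The salt-inducible kinase gene sik2.L, which restrains CREB co-activators, had 27.1, 30.6 and 34.9 CPM at 4 h, against 18.3, 22.3 and 23.9 CPM at 0 h, with 19.3, 22.3 and 23.2 CPM in Ctrl, without overlap. The angiomotin-like gene amotl2.L, which binds and restrains YAP at junctions, had 16.8, 27.6 and 28.4 CPM at 4 h, against 15.3, 16.7 and 19.4 CPM at 0 h, with 16.95, 21.0 and 23.2 CPM in Ctrl; ATP 4 h replicate 1 was the low 4 h library and lay inside the 0 h range. The teashirt zinc finger gene tshz1.S was called at 3.90 ± 0.240 CPM at 4 h, against 2.28 ± 0.373 CPM at 0 h (SD, n = 6 each). For lonrf2.L it was 21.7 ± 2.12 CPM at 4 h, against 16.6 ± 0.997 CPM at 0 h, and for the adaptor gene bcar3.S 13.5 ± 1.80 CPM at 4 h, against 9.26 ± 1.01 CPM at 0 h, all 3 without overlap. The protocadherin gene dchs1.L, a ligand of fat cadherins in planar polarity, was called at 12.99 ± 3.57 CPM at 4 h, against 8.21 ± 2.39 CPM at 0 h, with overlap. The 7 others carry only locus identifiers, and the largest fold change among them was in LOC121396074, at a mean of 1.26 CPM at 4 h and 0.318 CPM at 0 h.

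The called genes moved the same way after extract and after ATP. An unadjusted p under 0.05 was reached after extract alone and after ATP alone by 16 of the 16 higher genes and by 25 of the 26 lower genes, fos.S being the exception. These genes were called from the mean of the 2, so this describes them and is no test. Over all genes, 151 were past that level upward in both stimuli, 27.5% of the 550 after extract (2.29% of all genes) and 9.93% of the 1520 after ATP (6.32%). Downward there were 121, 31.0% of the 390 after extract (1.62%) and 8.81% of the 1373 after ATP (5.71%). The log2 fold changes of the 2 stimuli, which come from different libraries, had a Pearson r of 0.262 and a Spearman correlation of 0.376 across 24052 genes, with the same sign in 65.6%. Genes are not independent replicates. The test of the difference between stimuli called 0 genes (edgeR; 626 genes at an unadjusted p under 0.05, 2.6%), and the only other count above 0 among the alternatives was 3, from the authors' deposited adjusted values. Besides fos.L and fos.S, the smallest p values of that test were in the vessel genes egfl7.S and cldn5.L and the actin-bundling gene fscn1.L. The change with time of egfl7.S was -0.26 after extract and 2.12 after ATP.

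**Figure D3:**
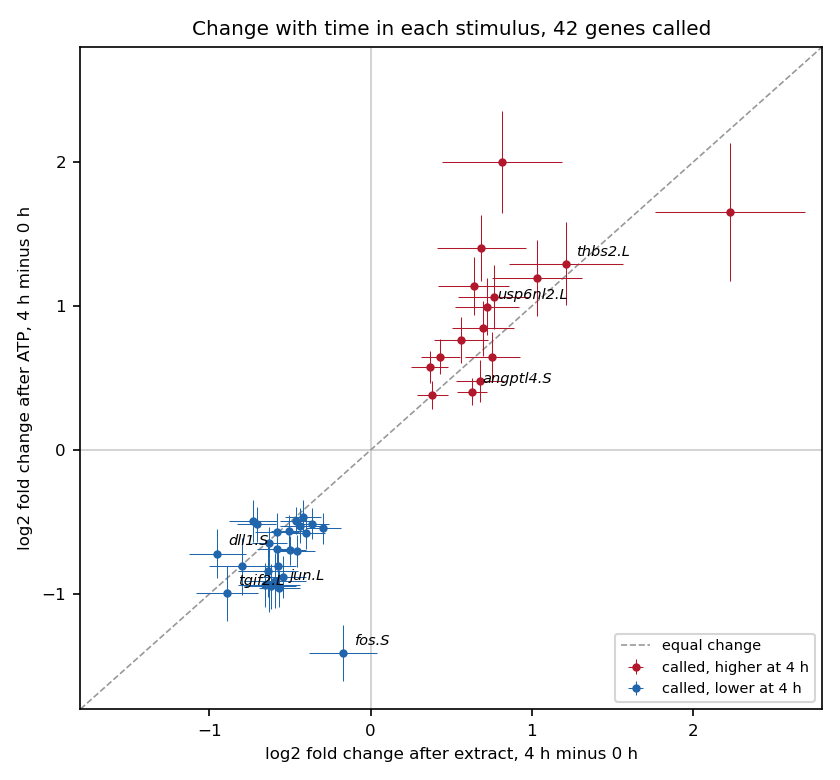
Log2 fold change, 4 h minus 0 h, after extract (horizontal axis) and after ATP (vertical axis) for the 42 called genes, with bars of 1 SE; red points were called higher and blue ones lower at 4 h, and the dashed line marks equal change. Every point lies on the same side of 0 in both stimuli, and fos.S lies farthest below the line, at -0.17 after extract and -1.41 after ATP.

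The 2 subgenome copies of a gene moved alike. Of the 26 lower genes, 23 had a partner copy that was tested; all 23 partners had a negative log2 fold change and 12 were themselves called. Those 12 are among the 26 lower genes, so their sign was set by the selection and their pairs are counted from both sides. Of the 16 higher genes, 8 had a tested partner; all 8 were positive and 0 were called (5 had an unadjusted p under 0.05). Across all 5618 pairs tested, the log2 fold changes of the copies had a Pearson r of 0.619 and the same sign in 71.0%. Copies share libraries, and reads of near-identical stretches may have been assigned to either, so a pair counts as 1 observation at most.

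**Figure D4:**
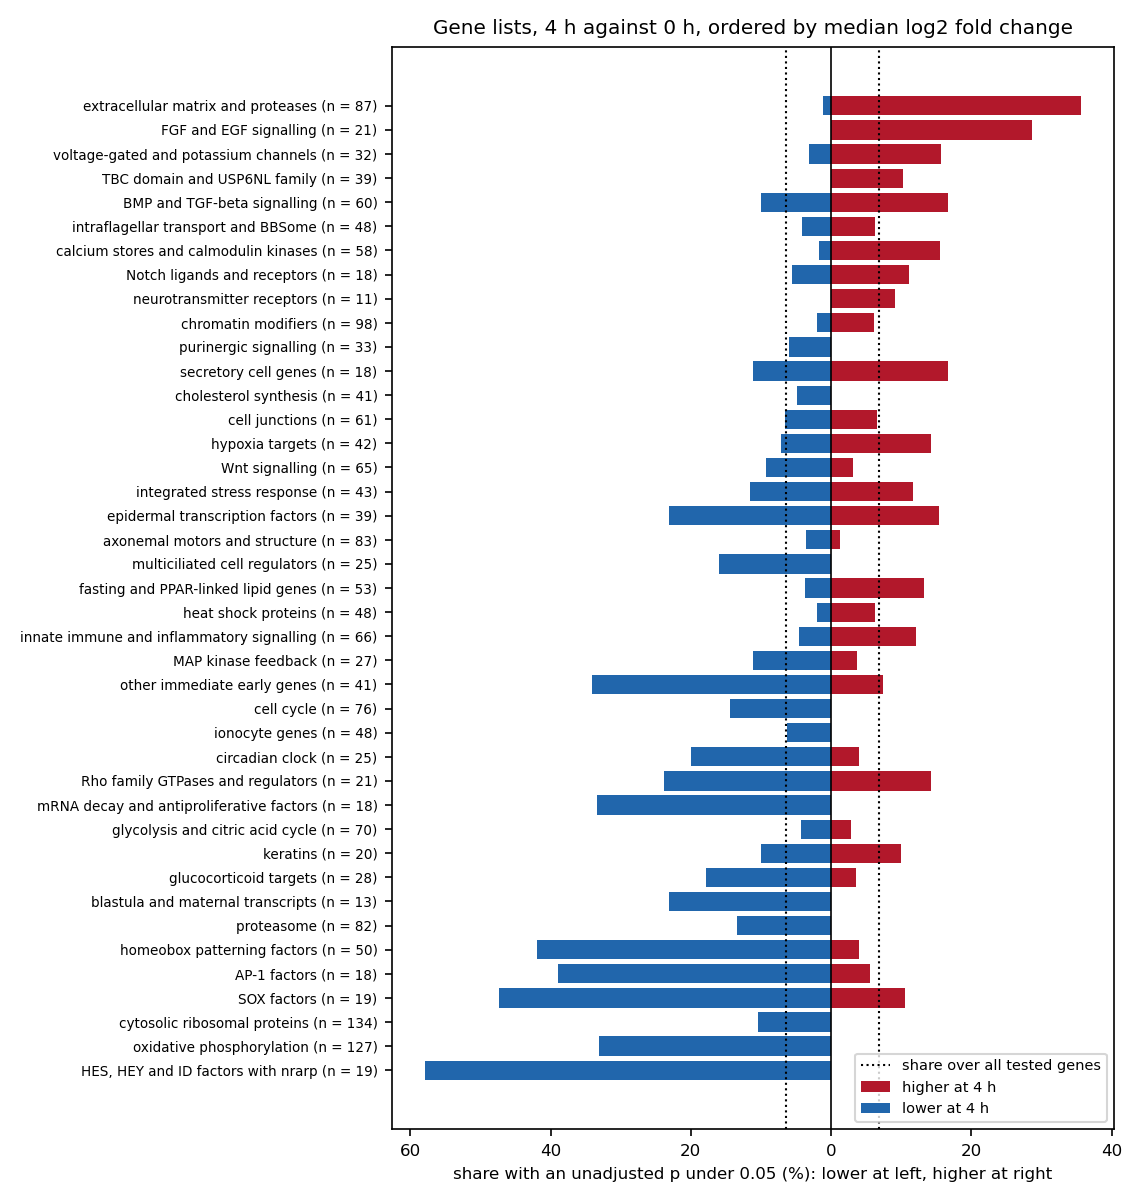
Share of the tested genes of each list with an unadjusted p under 0.05 at 4 h against 0 h, lower to the left in blue and higher to the right in red; lists of 10 or more tested genes are ordered by median log2 fold change, and dotted lines mark the shares over all tested genes, 6.37% lower and 6.82% higher. The hes, hey and id genes reach furthest to the left and the extracellular matrix genes furthest to the right.

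Large sets of housekeeping genes had medians below 0 with 0 genes called in each. Over all tested genes, an unadjusted p under 0.05 downward was reached by 6.37% with the replicate block and by 1169 of 24052 without it. Of 127 oxidative phosphorylation genes tested, 119 had a log2 fold change below 0 and 42 an unadjusted p under 0.05 downward (26 without the replicate block), with 0 upward. The median was -0.23, made of -0.10 after extract and -0.39 after ATP. The respiratory complex I subunit gene ndufa4.S, for example, had 24.9 ± 3.75 CPM at 4 h, against 33.5 ± 4.31 CPM at 0 h (SD, n = 6 each), with overlap. The summed level of the list was 3084 to 4882 CPM at 4 h, 3783 to 5432 CPM at 0 h and 3547 to 5031 CPM in Ctrl, so the times overlapped. Of 134 cytosolic ribosomal protein genes, 131 were below 0 and 14 had an unadjusted p under 0.05 downward (4 without the block). Their median was -0.20, made of -0.07 after extract and -0.33 after ATP. Their summed level in extract 4 h replicate 3, 23657 CPM, lay above all extract 0 h libraries (18177 to 19853 CPM). Of 82 proteasome genes 78 were below 0 and 11 had such a p. Their median was -0.15, made of -0.09 after extract and -0.26 after ATP. The count of 42 fell to 12 without ATP 4 h replicate 1 or extract 4 h replicate 2 and stood at 78 without extract 4 h replicate 3, that of 14 ribosomal protein genes ranged between 2 and 65, and that of 11 proteasome genes between 3 and 44, both highest without extract 4 h replicate 3 and lowest without any 1 of extract 0 h replicate 1, extract 4 h replicate 2 and ATP 4 h replicate 1 (for ribosomal protein genes also extract 4 h replicate 1). Among 76 cell cycle genes, 11 had an unadjusted p under 0.05 downward (7 without the block) and 0 upward, with cdc6.L at -0.35. Left-out libraries put the count of 11 between 3 and 23. It was lowest without extract 4 h replicate 1 or ATP 0 h replicate 1 and highest without extract 4 h replicate 3. The downward count over all tested genes also varied between these fits. It was 2918 of 24558 without extract 4 h replicate 3 and 748 of 24520 without ATP 4 h replicate 1. Without extract 4 h replicate 1 it was 743 of 24577, and without extract 4 h replicate 2 it was 837 of 24474. Without extract 0 h replicate 1 it was 833 of 24548, and without ATP 0 h replicate 1 it was 961 of 24535.

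Extracellular matrix genes lay at the other end. Of 87 matrix, integrin and matrix protease genes tested, 0 were called. An unadjusted p under 0.05 was reached by 31 upward and 1 downward, where 6.82% and 6.37% of all genes did. Without the replicate block 18 had one upward, where 1176 of all 24052 genes did. The median log2 fold change was 0.24, and it was 0.12 with the trend over gene span removed and 0.03 with the muscle marker level as a covariate, both described below. The hemidesmosome integrin gene itgb4.S had 3.34, 5.88 and 12.99 CPM at 4 h, against 2.71, 4.21 and 5.68 CPM at 0 h, with 4.49, 7.26 and 11.05 CPM in Ctrl. The basement membrane collagen gene col4a2.L had 4.87 ± 3.13 CPM at 4 h, against 2.67 ± 1.87 CPM at 0 h (SD, n = 6 each). The cartilage and notochord collagen gene col2a1.L had 30.6, 50.7 and 84.2 CPM at 4 h, against 21.9, 31.0 and 61.8 CPM at 0 h, with 38.0, 51.6 and 100.2 CPM in Ctrl, and the times overlapped in all 3. Outside the list, thrombospondin 2, a matricellular protein, was called through thbs2.L, with 1.05, 3.98 and 9.63 CPM at 4 h, against 0.633, 1.40 and 6.12 CPM at 0 h, with 2.32, 4.52 and 10.8 CPM in Ctrl, and ATP 0 h replicate 2 was the high 0 h library. The summed level of the list was 7370.1 to 9224 CPM at 4 h, 5093 to 8810.0 CPM at 0 h and 7764 to 9514 CPM in Ctrl, so each time overlapped Ctrl. The list's median was -0.14 for 4 h minus Ctrl and -0.37 for 0 h minus Ctrl. Left-out libraries put the count of 31 between 24 and 41. Over all tested genes the upward count of those fits lay between 1115 of 24548 and 2633 of 24558.

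Markers of other cell types were measured in the same libraries. Of 18 muscle marker genes 9 were tested, all 9 had a log2 fold change above 0, and 7 of them had an unadjusted p under 0.05 (4 without the block). Their median log2 fold change was 1.66 (0.64 after extract, 2.22 after ATP), against -2.30 for 0 h minus Ctrl. Their summed level was 8.51 to 277 CPM at 4 h, 7.44 to 94.3 CPM at 0 h and 22.9 to 237 CPM in Ctrl (4 h against 0 h, exact permutation test that ignored stimulus and replicate number, two-sided p = 0.0758). The muscle myosin gene myh4.L was the largest contributor, and the regulators myod1 and myog were near 0, each at most 0.677 CPM in any library. None of the 9 was called. Notochord markers summed to 55.1 to 135 CPM at 4 h, 35.97 to 94.0 CPM at 0 h and 66.0 to 164 CPM in Ctrl, blood and endothelium markers to 4.39 to 40.2 CPM at 4 h, 4.51 to 14.0 CPM at 0 h and 9.06 to 23.2 CPM in Ctrl, neural crest markers to 14.7 to 28.8 CPM at 4 h, 13.5 to 26.4 CPM at 0 h and 15.6 to 37.8 CPM in Ctrl, and neural markers to 73.6 to 93.3 CPM at 4 h, 73.9 to 85.1 CPM at 0 h and 77.4 to 85.8 CPM in Ctrl. Most of the notochord sum came from the collagen genes col2a1.L and col2a1.S, at means of 52.4 and 33.0 CPM at 4 h. The notochord markers shh and tbxt were near 0, each at most 1.27 CPM in any library. Most of the neural sum was syt1.L, at a mean of 71.7 CPM at 4 h. The other neural markers were each at most 3.40 CPM in any library. The 40.2 CPM of blood and endothelium markers was in ATP 4 h replicate 1 alone, and the next 4 h library, ATP replicate 2, had 15.9 CPM. With the muscle marker level as a covariate, chosen after seeing the data, 0 genes were called at 4 h against 0 h (979 at an unadjusted p under 0.05) and 1 matrix gene had an unadjusted p under 0.05 upward. Downward, such a p was then reached by 7 oxidative phosphorylation, 1 ribosomal protein, 0 proteasome, 1 cell cycle, 8 homeobox, 3 SOX and 8 hes, hey and id genes, against 42, 14, 11, 11, 21, 9 and 11 without the covariate. Over all 24052 tested genes the downward count also fell, from 1532 without the covariate to 484 with it, and the upward count from 1640 to 495. The gene jun.L then had a log2 fold change of -0.70, znf703.L -0.55, and thbs2.L 0.58. The covariate takes up part of the contrast itself, and the part of other cell types in the changes was not tested.

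Gene length went with the change as well. The span of a gene, start to end with introns, had a median of 4097 bases in the 26 lower genes and 61916 bases in the 16 higher ones, against 19679 bases over all tested genes (RefSeq table of assembly Xenopus_laevis_v10.1). With all genes ordered by span in 10 equal groups, 15 of the lower genes were in the shortest group, and 9 of the higher genes were in the longest 2 groups. The median log2 fold change was -0.08 in the shortest group and 0.14 in the longest. Within a library, level relative to the 15-library mean was set against span. The Spearman correlation was 0.0887 ± 0.175 at 4 h and -0.112 ± 0.0981 at 0 h (SD, n = 6 each). An exact permutation test that ignored stimulus and replicate number gave a two-sided p = 0.0455, not adjusted for the other library measures tested. The closely alike extract 4 h replicates 1 and 2, at 0.220 and 0.181, counted in it as separate libraries. With the trend over span removed from the counts, chosen after seeing the data, 19 genes were called lower and 6 higher, 24 of them among the 42. The genes jun.L, znf703.L, ier5l.S and angptl4.S were among the 24. What underlies the trend was not tested.

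**Figure D5:**
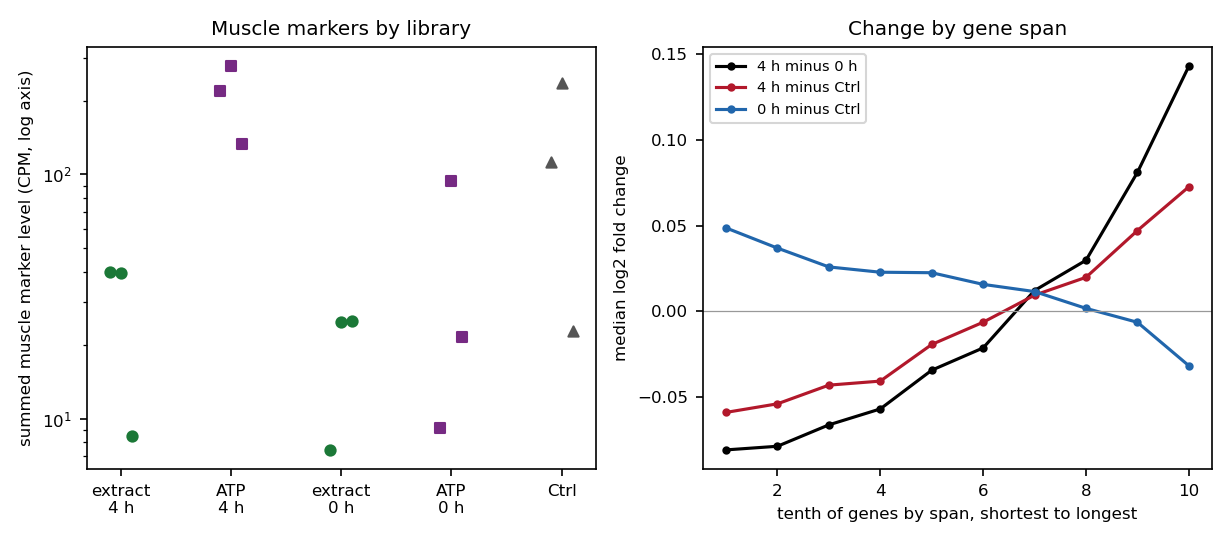
Left, summed level of 18 muscle marker genes in each library (CPM, log axis); right, median log2 fold change of 10 equal groups of genes ordered by span, for 4 h minus 0 h, 4 h minus Ctrl and 0 h minus Ctrl. The ATP 4 h libraries lie at 133 CPM or more, and the line of 4 h minus 0 h climbs with span while that of 0 h minus Ctrl declines.

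Against Ctrl, single genes passed. At 4 h, znf703.L was the 1 gene called (0.00416% of genes), lower by a log2 fold change of -0.72 ± 0.09 (SE, edgeR adjusted p = 0.0437). At 0 h its change from Ctrl was -0.08. At 0 h, LOC108718763 was the 1 gene called (0.00416%), lower by -1.57 ± 0.20 (edgeR adjusted p = 0.0440). At 4 h it stood at -0.52 from Ctrl. The genes with the next smallest p at 0 h were lower there too: thbs2.L at -1.67, the non-muscle myosin gene myh10.S at -1.55 and hoxa10.S at -1.67, against -0.42, -0.54 and -0.85 at 4 h. The orphan nuclear receptor gene nr4a1.L was among the 5 smallest p at 4 h, higher than Ctrl by 1.11 at 4 h and by 0.79 at 0 h, with a change between the times of 0.33. An unadjusted p under 0.05 was reached against Ctrl by 1937 genes at 4 h (8.05%) and 1487 at 0 h (6.18%). The 2 comparisons share the 3 Ctrl libraries.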

How the data were processed

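RNA was sequenced after ribosomal depletion as 75-nucleotide single-end reads, per the labels' protocols. The submitters' processing notes name fastp, STAR, RSEM and limma; versions and genome build are not given in the sources used here. The authors deposited estimated counts per gene (RSEM, 42638 genes, unit checked on the values) and a second table of log2 values with surrogate variables removed, which served as an alternative only. Columns were matched to samples by the names in the labels.

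Estimated counts were rounded, filtered by expression (24052 genes left) and fitted with edgeR 4.0.16 in R 4.3.3 (TMM, robust quasi-likelihood, group plus replicate block over all 15 libraries, 8 residual degrees of freedom); time was averaged over both stimuli, and p-values were adjusted over all genes (Benjamini-Hochberg). Levels are TMM-normalised CPM, and SE is the log2 fold change over the root of F. The code of the fit was tried on simulated counts, drawn as independent libraries without replicate effects, span trend or other cell types. That trial does not bear on how the calls varied with the libraries included. The common biological coefficient of variation, the spread between libraries beyond counting error, was 0.156.

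The block is the column block of the count table. Same-numbered libraries deviated together with every correlation over 0.1 in 5 of 10 group pairs, none of which included extract 4 h. Extract 4 h with ATP 4 h had 0.39, -0.06 and 0.42. Whether the numbers pair the extract 4 h samples with others cannot be told from this, so results without the block are given too. Named genes were those called at a mean of 1 CPM or more (up to 20 per direction), their copies, the called or 3 smallest-p genes of each of 42 lists, and the 5 smallest p of the other contrasts; further list members past an unadjusted p of 0.05 were chosen after their values were seen. The members and lists were chosen with earlier results of these data known. Alternatives used limma 3.58.1 and DESeq2 1.42.0. Gene spans and biotypes came from the RefSeq table; 40077 symbols matched.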

Additional observations from a re-analysis of the deposited data

Results flagged for a closer look

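In the 42 called genes, the 6 libraries of each time were searched for a single library far from the rest (gap to its neighbour over the whole range above Dixon's 95% critical value for 6). Among 84 such groups 9 were found, and chance alone gives about 1 in 20.

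At 4 h, extract replicate 3 lay apart for ier5l.L, at 51.0 CPM with the next library at 43.1 CPM, and for sox9.L, at 38.5 CPM with the next at 30.4 CPM. In both genes it was the 4 h library nearest to the 0 h levels. It also had 8.51 CPM of summed muscle markers and 39.2% ribosomal RNA, the lowest and the highest of the 4 h libraries. ATP replicate 1 lay apart at 4 h for amotl2.L, at 16.8 CPM with the next library at 24.1 CPM.

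At 0 h, ATP replicate 3 lay apart for 3 genes, at 46.1 CPM for msx1.L, 18.3 CPM for sik2.L and 25.1 CPM for sox9.S. ATP replicate 2 was the high library for thbs2.L at 6.12 CPM and for LOC108718763 at 8.49 CPM, and it held the highest summed muscle markers at 0 h, 94.3 CPM. Extract replicate 3 was the low library for dll1.S, at 5.61 CPM with the next at 8.47 CPM. The part of these libraries in the calls was not tested beyond leaving each out.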

How the results depend on the processing

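Against the 42 genes called at 4 h against 0 h with the replicate block, 14 were called without the replicate block (2 higher, 12 lower), 20 by limma-voom, 27 with the 2 copies of each gene summed, 199 by DESeq2, 2523 in the authors' deposited adjusted values and 3 with extract 4 h replicates 1 and 2 summed and no replicate block. Of the alternatives added after seeing the data, the muscle marker covariate gave 0, removal of the span trend 25 and leaving out extract 4 h replicates 1 and 2 together 0 (1133 genes at an unadjusted p under 0.05). Leaving out 1 library in turn gave 4 to 173. The remaining alternatives (12 libraries alone, RLE, both filters, ribosomal genes left out) stayed within 1.5 times of 42. The cause of these differences was not tested. The authors' deposited values had surrogate variables removed beforehand. The fit on them held group terms only and spent no degrees of freedom on those variables. Its counts, here and below, are therefore not comparable with those of the other fits.

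For 4 h against Ctrl (1 gene), no filter gave 8, DESeq2 49, limma-voom 0, the summed replicates 0, the authors' deposited values 1119 and left-out libraries 0 to 23. For 0 h against Ctrl (1 gene), no replicate block gave 0, no filter 22, DESeq2 126, limma-voom 10, summed copies 0, summed replicates 0, the authors' deposited values 923 and left-out libraries 0 to 189. The difference between stimuli had 0 calls in every edgeR, DESeq2 and limma-voom fit and 3 in the authors' deposited values.

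Over the called genes and all alternatives, 617 results lost the call and 600 kept it. No called gene changed sign under any alternative, which is no test, as they were chosen by their change in these same libraries. Genes that were not called and did were dll1.L (0.0341 in the authors' deposited values, 0.0597 with the muscle covariate, -0.183 to 0.0830 over left-out libraries), entpd1.L (-0.0669), g6pc1.1.L (-0.0572) and fscn1.L (-0.26) with the muscle covariate, and htr7.L (-0.0984) without extract 4 h replicates 1 and 2. With 3 replicates per group, which genes were called varied with the libraries included.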
